A study of Mus musculus with 272 samples.

Results

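The integrated stress response is the program by which cells under amino acid shortage, unfolded protein stress or viral infection slow protein synthesis and switch on a set of rescue genes. Here 10 of its genes in mouse muscle stem cells (MuSCs) are described, of 21938 protein-coding genes of the GENCODE M21 annotation: the kinase genes *Eif2ak3* and *Eif2ak4*, their substrate *Eif2s1*, the transcription factor genes *Atf4*, *Atf5* and *Ddit3*, and the target and feedback genes *Trib3*, *Ppp1r15a*, *Asns* and *Chac1*. They were chosen by gene name with their promoter peaks in these libraries already known, *Atf4* because it had none, so the states and fold enrichments of their promoters are a description, and no test was made. The peak lists are those of 8 of the 272 samples of the series, 2 libraries each of ATAC-Seq, which marks open chromatin, and of chromatin immunoprecipitation for histone H3 trimethylated at lysine 4 (H3K4me3), found at promoters, acetylated at lysine 27 (H3K27ac), found where promoters or enhancers are active, or trimethylated at lysine 27 (H3K27me3), found at repressed genes. The labels give skeletal muscle as the tissue of all 8 libraries, and no treatment, age or strain. Per the extraction protocol in the labels of each library, the MuSCs were sorted by GFP from Pax7Cas9 mice, in which Cre expressed from *Pax7* switches on Cas9 and EGFP in the *Pax7* lineage, so all 8 libraries share this transgene background and no library serves as a control without it. Nothing in the sources used here says whether the 2 replicates of a feature came from separate animals.

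Several kinases, among them PERK (*Eif2ak3*), which senses unfolded proteins in the endoplasmic reticulum, and GCN2 (*Eif2ak4*), which senses uncharged tRNA, phosphorylate the translation factor eIF2α (*Eif2s1*). Phosphorylated eIF2α lowers translation in general but raises translation of *Atf4* mRNA through its upstream open reading frames, so that ATF4 protein is set largely at translation and not only at the promoter. ATF4 binds DNA with C/EBP family partners at composite sites and activates genes of amino acid synthesis, redox balance and cell death. In MuSCs, phosphorylation of eIF2α is known to be needed for quiescence and self-renewal.

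Marker genes of MuSCs were checked first. Both replicates had a promoter peak at 13 of 13 marker genes of MuSCs by ATAC-Seq, 13 by H3K4me3, 12 by H3K27ac and 0 by H3K27me3, against 38, 23, 9 and 6 of 49 marker genes of endothelial, fibro-adipogenic, blood, muscle fibre and nerve cells. Here a promoter reaches 3 kb up- and downstream from each annotated start of transcription. The 21 assembled chromosomes held 140716 and 94382 ATAC-Seq peaks in replicates 1 and 2, 20512 and 18001 peaks of H3K4me3, 24209 and 18584 of H3K27ac, and 6064 and 10458 of H3K27me3. The lists hold no read numbers, so the depth behind a value is unknown, and 2 replicates of different peak number allow no test between genes.

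Of the 10 genes, 9 had promoter peaks of ATAC-Seq in both replicates, beside 67.8% of all protein-coding genes, and the same count had promoter peaks of H3K4me3 in both, beside 60.8%. H3K27ac was found in both replicates at 6 of them, beside 46.6%, and H3K27me3 at 0, beside 4.81%. All 3 active features (ATAC-Seq, H3K4me3, H3K27ac) were present in both replicates at 6 genes, namely *Eif2ak3*, *Eif2ak4*, *Eif2s1*, *Atf5*, *Ddit3* and *Ppp1r15a*, beside 46.2% of all protein-coding genes. *Trib3*, *Asns* and *Chac1* had ATAC-Seq and H3K4me3 without H3K27ac in both replicates, a state of 13.7% of protein-coding genes. *Atf4* had no promoter peak in any of the 8 lists, as did 25.9% of protein-coding genes. These counts were known when the genes were chosen, and nothing is read from them beyond the states themselves. A peak lay directly over an annotated start site at each of the 9 genes in every library that gave it a promoter peak.

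**Figure D1:**
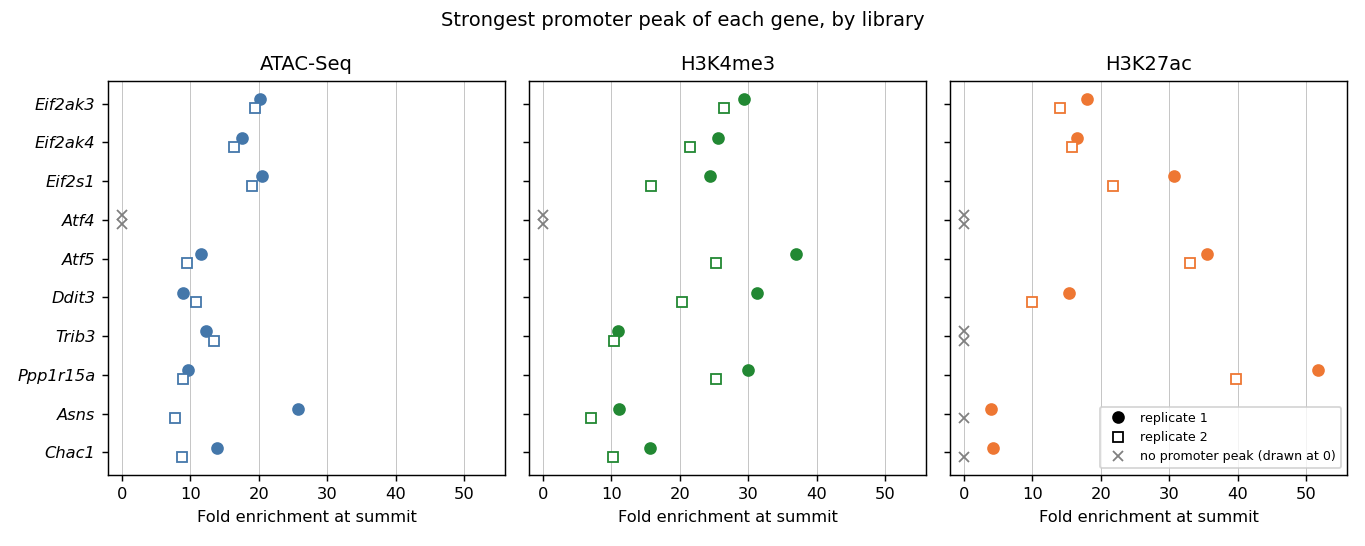
Fold enrichment at the summit of the strongest promoter peak of each gene (horizontal axis, linear) for ATAC-Seq, H3K4me3 and H3K27ac; filled circles are replicate 1, open squares replicate 2, and grey crosses at 0 are genes with no promoter peak in that library. *Atf4* has crosses in every panel, and *Trib3* has crosses for H3K27ac only, while *Ppp1r15a* stands highest for H3K27ac at 51.7 and 39.7.

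The promoters of the kinase genes were much alike. *Eif2ak3* (chr6:70844515-70905245, plus strand) had ATAC-Seq fold enrichments at the summit of 20.2 and 19.4 in replicates 1 and 2, H3K4me3 of 29.4 and 26.4, and H3K27ac of 18.01 and 13.98. To place such a value, it was ranked within its own list among the protein-coding genes with a promoter peak there, by their strongest one. *Eif2ak3* stood at percentiles 86.00 and 88.9 for ATAC-Seq, at 66.8 and 83.1 for H3K4me3 and at 65.4 and 60.7 for H3K27ac. Its ATAC-Seq summits lay 13 bp upstream of a start site and at it. *Eif2ak4* (chr2:118388618-118475234, plus strand) had ATAC-Seq values of 17.6 and 16.3, H3K4me3 of 25.6 and 21.5 and H3K27ac of 16.5 and 15.8, each a little below *Eif2ak3* except H3K27ac in replicate 2. Its H3K27ac percentiles were 60.1 and 68.2, so for this mark neither kinase gene stood above the other in both replicates.

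*Eif2s1* (chr12:78861819-78887010, plus strand), which encodes eIF2α, had ATAC-Seq values of 20.4 and 19.02 and H3K4me3 values of 24.4 and 15.8. Its H3K27ac values of 30.7 and 21.7 ranked at percentiles 91.5 and 86.2, above those of both kinase genes in each replicate, whereas its H3K4me3 percentiles of 51.3 and 42.7 were below theirs. The promoter is shared: *Atp6v1d*, a subunit gene of the vacuolar proton pump, starts 181 bp away on the opposite strand, and peaks over both starts cannot be assigned to either gene.

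The transcription factor genes differed from each other. *Atf5* (chr7:44812256-44816658, minus strand), an ATF4 target that is itself a stress-induced activator, had the highest H3K4me3 of the 10 genes in replicate 1, with 37.0, and 25.3 in replicate 2. Its H3K27ac values were 35.5 and 33.05, at percentiles 95.5 and 97.9, on peaks 4350 and 2346 bp wide. ATAC-Seq at *Atf5* was only 11.6 and 9.45, at percentiles 38.2 and 29.7, far lower in its lists than its acetylation. *Il4i1* and *Nup62* start 178 and 191 bp from *Atf5* on the opposite strand. *Ddit3* (chr10:127290774-127296288, plus strand), which encodes the pro-apoptotic factor CHOP, had ATAC-Seq values of 8.88 and 10.8, the lowest of the 9 genes in replicate 1. Its strongest promoter H3K4me3 values of 31.3 and 20.3 had summits at −2052 and −2023 bp from a start of *Ddit3*, nearer to the start of *Mbd6*, which lies 1756 bp away on the opposite strand. Where a separate H3K4me3 peak was called over the start of *Ddit3* itself, in replicate 2, its fold was 14.8 with the summit 249 bp from a start site. For H3K27ac the peaks over the start of *Ddit3* had 11.5 and 9.93, and the strongest in its promoter had 15.3 and 9.93, the lowest of the 6 acetylated genes in both replicates. The noncoding *Gm4189* starts 5 bp from *Ddit3* on the opposite strand.

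Among the target and feedback genes, *Ppp1r15a* stood apart from the other 3. *Ppp1r15a* (chr7:45522916-45526268, minus strand) encodes GADD34, the phosphatase subunit that removes the phosphate from eIF2α and so ends the response. Its H3K27ac values of 51.7 and 39.7 were the highest of the 10 genes, at percentiles 99.7 and 99.5, and ranked 39 of 24209 and 52 of 18584 among all H3K27ac peaks of their lists. Its H3K4me3 peaks covered 5477 and 4637 bp of the promoter, the most of the 10 genes in both replicates, with fold enrichments of 29.97 and 25.3. ATAC-Seq at *Ppp1r15a* was low at 9.60 and 8.87, at percentiles 25.4 and 25.6, and was split into 5 promoter peaks in each replicate. *Plekha4* starts 62 bp away on the opposite strand.

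*Trib3* (chr2:152337422-152344032, minus strand), a pseudokinase gene that restrains ATF4 and AKT, had ATAC-Seq values of 12.3 and 13.5 and H3K4me3 values of 10.9 and 10.4 and no H3K27ac promoter peak in either replicate. *Asns* (chr6:7675169-7693254, minus strand), the asparagine synthetase gene, had H3K4me3 values of 11.1 and 7.01 and an H3K27ac peak in replicate 1 only, with a fold of 3.92 and a −log10 q of 3.62. *Chac1* (chr2:119351229-119354381, plus strand), which encodes an enzyme that degrades glutathione, had H3K4me3 values of 15.6 and 10.2 and an H3K27ac peak in replicate 1 only, with a fold of 4.22 and a −log10 q of 4.38. Among the strongest promoter peaks of all genes in that list, these stood at percentiles 2.13 for *Asns* and 3.82 for *Chac1*, and among all 24209 peaks of the list they ranked 20613 and 18503. In H3K4me3 these 3 genes held the percentiles from 12.2 to 27.8 over both replicates. The other 6 genes with a peak held those from 42.7 to 86.2. The groups were formed by their H3K27ac state in these same libraries. H3K4me3 ranks by that state were not computed over all protein-coding genes, so the difference is not read as a trait of these genes. ATAC-Seq did not order the genes in this way. *Asns* had the highest ATAC-Seq fold of all in replicate 1, 25.7, and the lowest in replicate 2, 7.73. This was the largest disagreement between replicates among the 9 genes. The *Trib3* ATAC-Seq percentiles of 43.3 and 59.4 were above those of *Atf5* and *Ppp1r15a*.

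**Figure D2:**
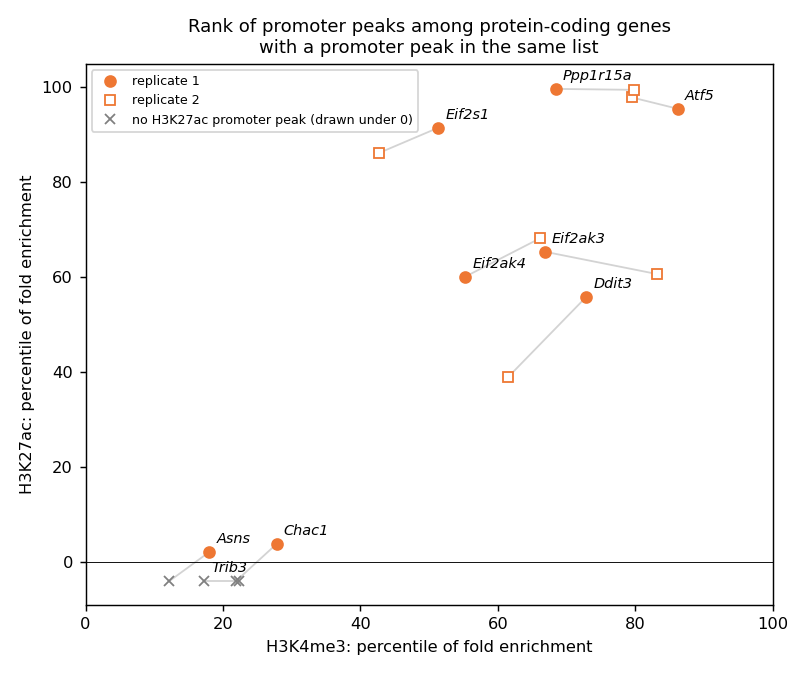
Percentile of the strongest promoter peak of each gene for H3K4me3 (horizontal axis) and H3K27ac (vertical axis), among protein-coding genes with a promoter peak in the same list; a grey line joins replicate 1 (filled circle) and replicate 2 (open square), and crosses below 0 mark libraries without an H3K27ac promoter peak. *Trib3*, *Asns* and *Chac1* lie at the lower left, and *Ppp1r15a*, *Atf5* and *Eif2s1* lie at 86.2 or higher for H3K27ac in both replicates.

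Ranked by the lower of the 2 H3K27ac percentiles, the order was *Ppp1r15a* (99.5), *Atf5* (95.5), *Eif2s1* (86.2), *Eif2ak3* (60.7), *Eif2ak4* (60.1) and *Ddit3* (39). *Eif2ak3* and *Eif2ak4* exchanged places between replicates, and so did no other neighbours in this order. The 3 at the top are also those with a protein-coding gene starting within 191 bp on the opposite strand. This was noticed after the values were seen, and whether such neighbours account for the ranks was not tested.

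The motif for which ATF4 composite sites are known, TGATGNAA (the C/EBP-ATF response element, where N is any base), was searched on both strands from 250 bases before to 50 after the RefSeq start sites (build GRCm38.p6, the assembly of mm10), together with its stricter form TGATGCAA and the cAMP response element TGACGTCA, which reads the same on both strands. All 10 genes were in the RefSeq promoter table. TGATGNAA matched in *Trib3*, *Asns* and *Chac1*, 3 of the 10 genes, and in 3.99% of 16522 protein-coding genes in the table. TGATGCAA, which is part of TGATGNAA, matched in *Chac1* alone among the 10 and in 1.05% of all, and TGACGTCA in *Ppp1r15a* alone and in 2.64% of all. In the wider window from 1000 bases before to 200 after, *Ddit3* was added with a match to TGATGCAA, and 15.7% of all genes held TGATGNAA. Each of these matches lay inside an ATAC-Seq promoter peak found in both replicates, and in 300 bases around the summit of the strongest such peak TGATGNAA was found for *Asns*, *Chac1* and *Trib3*, beside 1.72% of 14722 protein-coding genes with such a peak. How often a match lies inside such a peak was not counted over all genes, so this position is not read as a trait of these genes. The sequences that hold the matches are shown so that their letters can be read. Capitals mark the match, on the strand of the gene, and positions count from the RefSeq start site as 0. The stretches stop at annotated exons, and where the match lies in one only 30 bases are shown.
*Ddit3*, chr10:127290372-127290562, plus strand, bases −421 to −231: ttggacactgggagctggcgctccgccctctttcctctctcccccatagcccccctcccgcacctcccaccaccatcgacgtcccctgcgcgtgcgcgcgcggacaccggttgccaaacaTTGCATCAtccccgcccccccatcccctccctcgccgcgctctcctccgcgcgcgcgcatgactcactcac
*Trib3*, chr2:152344028-152344057, minus strand, bases 3 to 32: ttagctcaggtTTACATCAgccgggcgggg
*Asns*, chr6:7693214-7693243, minus strand, bases −34 to −5: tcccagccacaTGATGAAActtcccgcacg
*Chac1*, chr2:119350929-119351176, plus strand, bases −313 to −66: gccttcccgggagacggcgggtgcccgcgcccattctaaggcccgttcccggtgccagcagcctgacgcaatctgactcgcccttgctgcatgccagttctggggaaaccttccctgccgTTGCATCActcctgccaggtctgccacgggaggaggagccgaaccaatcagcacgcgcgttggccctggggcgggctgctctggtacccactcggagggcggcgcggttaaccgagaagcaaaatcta
*Ppp1r15a*, chr7:45526269-45526329, minus strand, bases −61 to −1: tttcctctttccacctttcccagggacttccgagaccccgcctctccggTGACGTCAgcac

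The match of *Asns* reads TGATGAAA on the strand of the gene, those of *Ddit3* and *Chac1* read TTGCATCA, and that of *Trib3* reads TTACATCA, so the motif lies on the other strand in these 3. The 3 genes with TGATGNAA near the start are the same 3 that had H3K4me3 without H3K27ac in both replicates. Over all protein-coding genes of the table the 2 measures did not go together in this way. Of 268 genes that held TGATGNAA and had ATAC-Seq and H3K4me3 in both replicates, 77.6% also had H3K27ac, and of 9969 such genes without the motif, 78.2%. These 268 were 40.6% of the 660 genes with TGATGNAA, and the 9969 were 62.8% of the 15862 genes without it. Genes with the motif thus had ATAC-Seq and H3K4me3 less often than genes without it. A match of letters is not evidence of binding, and the lack of a match says only that these letters were not in the window searched.

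*Atf4* (chr15:80255184-80257541, plus strand) lay in an interval of 51.7 kb, chr15:80226088-80277765, in which none of the 8 lists had a peak. The interval reached 29096 bp upstream and 22581 bp downstream of the start of *Atf4*. In all, 4 protein-coding genes start in it: *Mief1*, a mitochondrial dynamics gene, 21.2 kb upstream, *AC140267.1* 19.3 kb upstream, *Atf4* itself, and *Rps19bp1*, a gene of ribosome biogenesis, with its start 9.13 kb downstream on the opposite strand. None of these 4 had a promoter peak of any feature in either replicate. Of the 6 genes of all classes that start in the interval, *4930588D02Rik*, near its upstream edge, had ATAC-Seq peaks in its promoter in both replicates, beyond that edge. Intervals at least this long and empty in all lists held the 5′ ends of 4673 protein-coding genes, 21.3% of all.

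Peaks resumed on both sides. Upstream, the nearest ATAC-Seq peaks ended 29.1 kb from the start of *Atf4* in both replicates, with folds of 5.12 and 6.72, outside any gene body but within 3 kb of the start of *4930588D02Rik*, which the annotation lists without a settled class and not as protein-coding. Downstream, the nearest were 22.6 kb away in replicate 1, with a fold of 4.74 and no counterpart in replicate 2, and 34.4 kb away in replicate 2. The nearest H3K4me3 upstream was the promoter of *Mgat3*, an N-glycan branching enzyme gene, 80.7 and 80.8 kb away, where it had folds of 14.4 and 12.2. *Mgat3* had ATAC-Seq and H3K4me3 in both replicates and no H3K27ac. Downstream, *Cacna1i*, a T-type calcium channel gene expressed mainly in neurons, had weak H3K27me3 peaks in both replicates from 31972 and 31256 bp on, the strongest with folds of 4.13 and 5.82, and an H3K4me3 promoter peak in replicate 1 only, with a fold of 4.13, while in replicate 2 the nearest H3K4me3 lay in its gene body, with a fold of 3.21. The nearest H3K27ac peaks were 95.3 and 116 kb upstream, within *Tab1* or its promoter, and 368 and 456 kb downstream. Of the 10 genes, *Atf4* was the only one with no H3K27ac peak in its gene body or within 50 kb of it in either replicate.

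**Figure D3:**
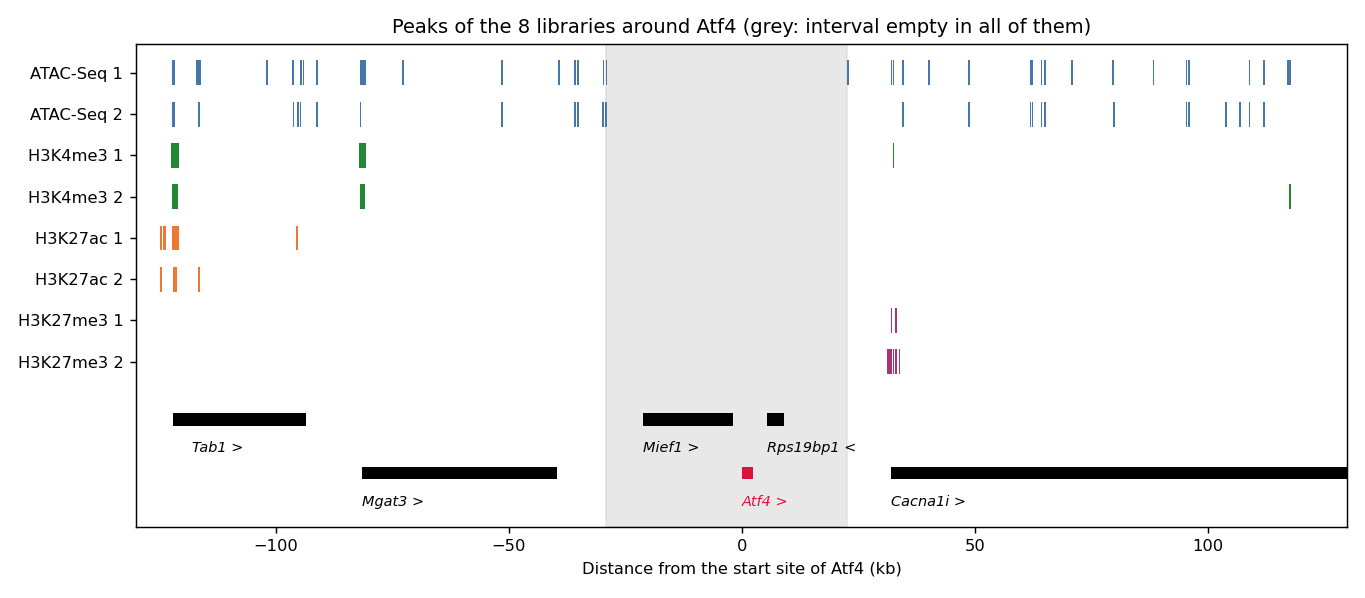
Peaks of the 8 libraries (coloured bars, the number after each feature is the replicate) by distance in kb from the start site of *Atf4* (horizontal axis), with protein-coding genes below (arrowheads give the strand, *Atf4* in red, *AC140267.1* not drawn); narrow peaks are drawn wider than they are so that they can be seen. The grey interval of 51.7 kb, which holds *Mief1*, *Atf4* and *Rps19bp1*, has no bar in any row.

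The promoter of *Atf4* was rich in CpG. In 1 kb centred on the 5′ end its GC content was 60.2% and its ratio of observed to expected CpG was 0.762, and the other 9 genes ranged from 0.630 (*Ddit3*) to 0.981 (*Eif2ak3*). *Mief1* and *Rps19bp1* had ratios of 0.730 and 0.791, and *AC140267.1* had 0.242. Of 5668 protein-coding genes with a ratio at least that of *Atf4*, 96.4% had H3K4me3 promoter peaks in both replicates and 109, or 1.92%, had no promoter peak in any list. Of those 109 genes, 91 lay in an empty interval at least as long as that of *Atf4*. Of all protein-coding genes, 4673 had their 5′ end in an interval that long, and 5677 had no promoter peak in any list. The count of 91 is therefore not read as particular to CpG-rich genes. The 91 genes were spread over 48 intervals, of which 14 held more than 1 of them. By contrast, genes without any promoter peak had a median ratio of 0.161, and genes with one had 0.671.

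**Figure D4:**
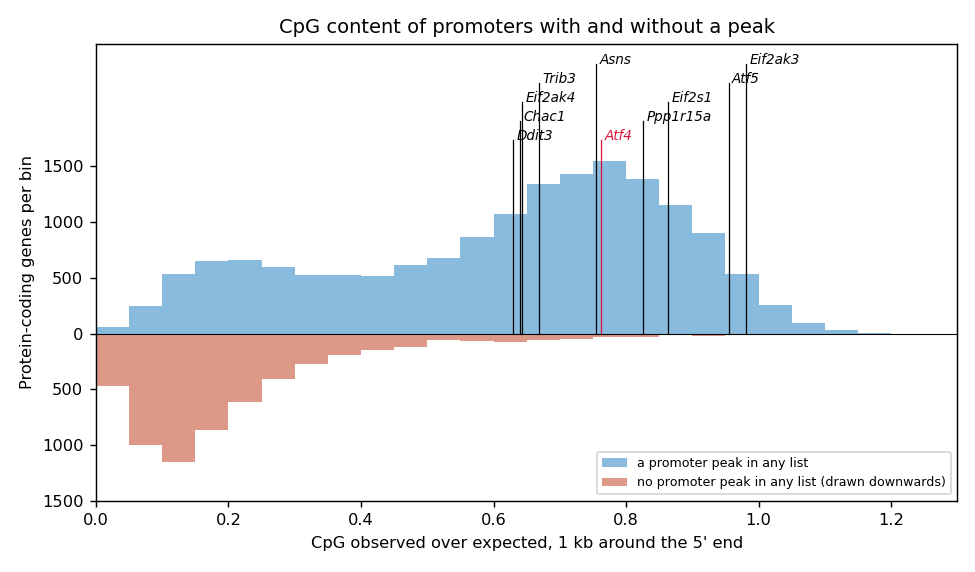
Number of protein-coding genes (vertical axis) by the ratio of observed to expected CpG in 1 kb around the 5′ end (horizontal axis), upwards for genes with a promoter peak in any list and downwards for genes without one; vertical lines mark the 10 genes. *Atf4*, at 0.762, lies where nearly all genes have a peak.

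The 250 bases before the start of *Atf4* are shown beside those of *Eif2ak3*, so that the CpG content of both can be compared by eye. The promoter of *Eif2ak3* had peaks of all active features in both replicates. Capitals mark each CpG, of which *Atf4* has 18 and *Eif2ak3* has 14 in this window. Both sequences are from RefSeq, build GRCm38.p6.
*Atf4*, chr15:80254934-80255183, plus strand: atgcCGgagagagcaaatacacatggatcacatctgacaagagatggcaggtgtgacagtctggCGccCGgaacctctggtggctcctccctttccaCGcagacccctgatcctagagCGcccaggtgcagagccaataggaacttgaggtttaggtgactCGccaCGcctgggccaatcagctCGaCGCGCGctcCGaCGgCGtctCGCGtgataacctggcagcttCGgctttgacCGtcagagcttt
*Eif2ak3*, chr6:70844265-70844514, plus strand: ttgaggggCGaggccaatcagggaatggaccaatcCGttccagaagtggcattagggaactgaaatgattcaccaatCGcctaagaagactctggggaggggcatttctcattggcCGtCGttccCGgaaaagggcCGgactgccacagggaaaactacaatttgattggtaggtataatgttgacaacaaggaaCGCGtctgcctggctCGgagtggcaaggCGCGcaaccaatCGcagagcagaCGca

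Measurements that bear on how the empty interval can be read were taken from the sequence and from the lists. The promoter of *Atf4* could be told from the rest of the genome by short sequences: of all 50-base words in 3 kb either side of its 5′ end, 99.2% occurred once in the 21 chromosomes, and 100% of 150-base words did, beside 91.2% to 100% and 99.2% to 100% for the other 9 genes. Over the whole empty interval the shares were 92.1% and 97.8%. In each list the peak numbers given by the caller ran from 1 to the last with 0 missing, and the peaks on either side of *Atf4* carried consecutive numbers. The authors removed blacklisted regions before peak calling. Whether this interval is one of them was not tested, and in peak lists a promoter without a mark cannot be told apart from one whose reads were not counted. The lack of peaks therefore gives no level of accessibility or of any mark at *Atf4*.

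With promoters included, the 50 kb windows around the 10 genes held 171 and 127 ATAC-Seq peaks in replicates 1 and 2. Of these, 74.9% and 88.2% overlapped a peak of the other replicate. At the promoter of the gene itself or of another protein-coding gene lay 98 and 74 of them. *Asns* had the fewest, 4 in each replicate, and *Ddit3* and *Eif2ak4* had the most in replicate 1, with 28 each, while in replicate 2 *Eif2ak4* alone led with 20. Each window also spans the gene body, which is 5515 bp long for *Ddit3* and 86617 bp for *Eif2ak4*. The counts were not adjusted for this length. Of the H3K27ac peaks in these windows, 31 of 33 in replicate 1 and 23 of 24 in replicate 2 were in the promoter of the gene itself or of another protein-coding gene. Of these, 19 and 13 were at promoters of other genes. The share over all H3K27ac peaks was not counted, so this is not read as a trait of these windows. Outside promoters, the 1 H3K27ac site found in both replicates was 13034 and 13113 bp upstream of *Chac1*. It lay at chr2:119337727-119338195 in replicate 1, with folds of 6.58 and 5.78. The same site had H3K4me3 folds of 13.4 and 9.79 and ATAC-Seq folds of 14.8 and 12.4, and no start site of any annotated gene within 3 kb. H3K27ac there was thus above the 4.22 at the *Chac1* promoter in replicate 1, and was called in replicate 2, where the promoter had none. Which gene, if any, this site acts on was not tested. *Eif2ak3* had a further H3K4me3 site 19487 and 19627 bp upstream, with folds of 6.64 and 3.001, open in both replicates (16.2 and 14.3) and without H3K27ac. *Eif2s1* had one 49785 and 49819 bp downstream, with folds of 4.04 and 4.61. The other H3K27ac peak outside promoters lay inside *Eif2ak3* in replicate 1 only, 18360 bp from its start, with a fold of 4.22.

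H3K27me3 was listed at none of the 10 promoters, beside 4.81% of all protein-coding genes with it in both replicates, but was listed around them. The windows held 12 and 21 H3K27me3 peaks, of which 12 and 17 were at promoters of other genes and 0 in the body of any of the 10. Windows around other protein-coding genes were not counted, so neither these peaks nor their absence is read as a trait of these genes. Peaks found in both replicates were those at *Cacna1i* near *Atf4*, at *Foxi3*, a forkhead factor gene of ectodermal organs, near *Eif2ak3*, at the receptor gene *Gpr176* near *Eif2ak4*, and at the Notch ligand gene *Dll4* near *Chac1*. The peaks at *Foxi3* had folds of 3.93 and 4.13 in replicate 1 and 5.48 and 5.24 in replicate 2. These lists were thresholded by p-value and not by q-value, and at a −log10 q of at least 5 the mean number fell from 16.5 to 1.00. Around *Atf5*, *Trib3*, *Ppp1r15a* and *Asns* there was no H3K27me3 peak in either replicate. *Mars*, the methionyl-tRNA synthetase gene, had its H3K4me3 promoter peaks 20101 and 20131 bp downstream of the start of *Ddit3*, with folds of 24.7 and 17.97, and H3K27ac there with folds of 14.1 and 15.95.

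A list of 59 further genes of the integrated stress response and of the linked unfolded protein response was counted in the same way, and 58 were found in the annotation by name. The other, *Mars1*, is annotated as *Mars* and is not in the counts. Its peaks of H3K4me3 and H3K27ac in both replicates are given above, and ATAC-Seq peaks lay at the same promoter with folds of up to 15.9 and 16.3. Promoter peaks in both replicates were present at 57 for ATAC-Seq, beside 67.8% of all protein-coding genes, at 55 for H3K4me3, beside 60.8%, at 53 for H3K27ac, beside 46.6%, and at 1 for H3K27me3, beside 4.81%. All 53 genes with H3K27ac had the other active features too, as did 10127 of the 10231 protein-coding genes with H3K27ac in both replicates. Of all protein-coding genes, marked or not, 46.2% had the 3. The kinases, phosphatase subunits and other eIF2 machinery had all 3 active features in 12 of 12 genes, the unfolded protein response in 9 of 9 and the aminoacyl-tRNA synthetases in 10 of 10. Amino acid transporters had them in 5 of 6, genes of serine, one-carbon and proline metabolism in 7 of 9, transcription factors and stress targets in 6 of 7, and secreted and other targets in 4 of 5. The list was drawn up with the promoter states of some of these genes known, so its counts are a description.

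The genes that departed were few. *Atf3*, a stress-induced repressor of the ATF family, had H3K27me3 in both replicates, with folds of 5.64 and 5.13, beside H3K4me3 of 27.4 and 28.2 and H3K27ac of 17.6 and 14.3. Counting only the 5′ end of the gene record removed this H3K27me3 call, and the H3K4me3 and H3K27ac calls of *Atf3* as well. Leaving out peaks of −log10 q under 5 removed its H3K27me3 call and kept those of H3K4me3 and H3K27ac. *Nupr1*, a small stress-induced chromatin protein gene, had ATAC-Seq of 12.3 and 9.90, H3K4me3 in replicate 1 only (3.95) and no H3K27ac. *Slc7a11*, the cystine transporter gene, had weak H3K4me3 of 4.17 and 3.45 and H3K27ac in replicate 2 only (4.05). *Aldh1l2*, a mitochondrial folate enzyme gene, had H3K4me3 of 6.66 and 4.61 and no H3K27ac. *Fgf21*, a secreted stress hormone gene, had ATAC-Seq alone, with 5.45 and 5.31. *Cars* had an H3K27me3 peak in replicate 1 only (1.51) and *Shmt2* in replicate 2 only (3.42), and both kept all 3 active features.

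*Pycr1*, which encodes an enzyme of proline synthesis, was the 1 gene of the list with no promoter peak of any feature, as *Atf4* was among the 10. It lay at chr11:120635712-120643769 in an interval of 134 kb empty in all 8 lists, in which 12 protein-coding genes start. They are *Alyref*, *Anapc11*, *Arhgdia*, *Gcgr*, *Mafg*, *Mcrip1*, *Npb*, *P4hb*, *Pcyt2*, *Ppp1r27*, *Pycr1* itself and *Sirt7*. Of the 50-base words in that interval, 97.4% occurred once in the genome. The 2 genes of the pathway without any peak, *Atf4* and *Pycr1*, both lay in long intervals without a listed peak. Other protein-coding genes start in both intervals. The CpG ratios differed, with 0.762 for *Atf4* and 0.395 for *Pycr1*. Of all protein-coding genes, 4673 had their 5′ end in an interval at least as long as that of *Atf4*, and 5677 had no promoter peak. Nothing particular to the pathway is therefore read from the 2 intervals.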

How the data were processed

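Chromatin of MuSCs sorted from skeletal muscle was profiled in 8 libraries, 2 replicates each of ATAC-Seq, H3K4me3, H3K27ac and H3K27me3. Per the study's methods and the submitters' processing notes, reads were trimmed with Trim Galore 0.6.10 and aligned to mm10 with BWA 0.7.17-r1188, low-quality alignments, duplicates and blacklisted regions were removed (SAMtools 1.5, bedtools), ATAC-Seq reads were shifted for Tn5 (deepTools 3.5.5), and peaks were called with MACS2 2.2.6 in each library. The deposited peak lists give the authors' score, their fold enrichment at the summit, and its p-value and q-value as −log10. Positions and folds are the deposited values, described and ranked within a list only. The H3K27me3 lists were thresholded by p (smallest −log10 p 3.01) and the others by q.

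Peaks on 21 chromosomes were compared with GENCODE M21 in Python 3.11.15 (numpy 2.4.6, numba 0.67.0, figures by matplotlib 3.10.9), with overlap from 1 bp, promoters of 3 kb either side of any start site, and windows of 50 kb around gene bodies. No peak ended past a chromosome of GRCm38.p6. Simulated intervals were used to test the counting of overlaps. The members and lists were chosen with earlier results of these data known, so counts are given beside those of all protein-coding genes, without tests. Named are all 10 genes, protein-coding genes near *Atf4* and in the empty interval of *Pycr1*, and genes with a promoter peak in a 50 kb window. Genes of the further list are named where they lacked an active feature or had H3K27me3. Alternatives were promoters of 1 kb, the 5′ end of the gene record only, a −log10 q of at least 5, and summits inside the promoter. Others were H3K27me3 peaks with a q of at most 0.05 only, each replicate alone, windows of 25 and 100 kb, and a longer motif window. Replicates had no blocked or paired fit, since no test was run. Depth is unknown from peak lists. Editing outcomes and ChIP inputs were not analysed here.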

Additional observations from a re-analysis of the deposited data

How the results depend on the processing

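Of 85 alternative settings over 19 results, 71 left the value within 1.5 times, or for distances within 1 SD, of the one reported, and 14 did not. For the distances from *Atf4* the SD was that of the 2 replicates, so leaving out either one could not move the mean by 1 SD. Those settings are among the 71 and say nothing about dependence on a replicate. For H3K4me3 the distance was 32.4 kb in replicate 1 and 80.8 kb in replicate 2, beside a mean of 56.6 kb. None of the alternatives changed the counts of the 10 genes except that with replicate 1 alone 8 genes had H3K27ac, *Asns* and *Chac1* being added. For the list of 58 genes, the H3K27me3 count of 1 became 0 with only the 5′ end of the gene record and 0 at a −log10 q of at least 5, where *Atf3* was lost, and 2 with either replicate alone, where *Shmt2* or *Cars* was added. With only the 5′ end, *Atf3* and *Psat1* were also lost from the H3K4me3 count, which went from 55 to 53. The same 2 genes were lost from the H3K27ac count, which went from 53 to 51. The mean number of peaks around the 10 genes went with the window: for ATAC-Seq from 149 to 87.5 at 25 kb and 255 at 100 kb, for H3K4me3 from 37 to 24 and 63, for H3K27ac from 28.5 to 51.5 at 100 kb, and for H3K27me3 from 16.5 to 4.50 at 25 kb. At a −log10 q of at least 5 the H3K27me3 mean was 1.00. The mean distance from *Atf4* to the nearest H3K27ac peak went from 106 to 121 kb, and to the nearest H3K27me3 peak from 31.6 to 9501 kb, at a −log10 q of at least 5. The latter mean comes from replicate 1, where the distance went from 31.97 to 18971 kb, while in replicate 2 it went from 31.3 to 31.6 kb. With 1000 bases before to 200 after the start, TGATGCAA was found in 2 genes in place of 1, *Ddit3* being added. No paired analysis was possible because no result comes from a test. With 2 replicates per feature and no read numbers, differences in fold between genes have no error estimate, and a promoter with a peak in 1 replicate is not shown to differ from one with peaks in both.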
